A study of Xenopus laevis with 8 samples.

Results

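The genes described here are the Wnt ligands, their receptors, the inhibitors of the pathway, its transducers and nuclear factors, and the planar polarity genes, as read in animal caps of *Xenopus laevis*. Membership went by gene name, and the names were chosen with earlier results of these data known. A probe set belonged to the group when its array annotation gave a single gene symbol of the *wnt*, *fzd*, *lrp5*, *lrp6*, *ror*, *sfrp*, *frzb*, *dkk*, *wif1*, *notum*, *kremen*, *shisa*, *dvl*, *axin*, *gsk3*, *apc*, *ctnnb1*, *tcf7*, *lef1*, *vangl*, *prickle* or *celsr* genes. The rule found 74 of 15491 probe sets, which carry 59 of the 7531 gene symbols on the array and 49 different gene names once the endings for the gene copies of this allotetraploid frog (.L and .S for the homoeologs, and -a and -b in older symbols) are set aside. A further 2 probe sets, 1 each for β-catenin and *lef1*, carry the symbols of both copies and were left out, so that no *lef1* probe set was counted, and no probe set with a single symbol was found for *notum*.

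The caps are ectoderm cut from blastulae and cultured until intact embryos reached stage 15, when the neural plate holds the eye field. GFP caps came from embryos injected only with RNA for a fluorescent protein, which the labels call GFP and the methods of the study call Venus YFP. EFTF caps came from embryos given that RNA together with RNAs for the eye field transcription factors *pax6*, *tbx3*, *rax* (*rx1*), *nr2e1*, *six3* and *six6* and for *otx2*. By the methods such RNAs were injected into embryos with a *venus YFP* transgene, though their microarray section does not name it. Several caps were pooled for each array. Each group has 4 Affymetrix arrays, numbered 1 to 4 in the labels, and every level below is the log2 of the intensity that the robust multi-array average (RMA) gives for a probe set.

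Wnt proteins are secreted lipid-modified signals that bind Frizzled receptors and, in the canonical branch, the co-receptors Lrp5 and Lrp6. Dishevelled then blocks the complex of Axin, Apc and Gsk3 that destroys β-catenin, and β-catenin enters the nucleus and works with Tcf and Lef proteins, which repress the same targets in its absence. A separate branch runs through Frizzled, Dishevelled, Vangl, Prickle and Celsr and orients cells within a sheet, as in the narrowing neural plate. In the frog embryo Wnt signals after gastrulation posteriorise the neural plate, and the head and eye field form where secreted inhibitors keep canonical signalling low.

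Several facts of the arrays bear on all values. The title of GFP replicate 1 says GFP while its source label says EFTF, and it was grouped by its title. Its level of *otx2.L* was 6.30 and that of *six6.L* was 4.68, below the lowest EFTF levels of 9.21 and 7.54. RNAs for both genes were injected, but by the study its *otx2* probe set reads the endogenous gene only. For *six6* the study does not say which RNA is read. Both levels were also the highest of the GFP arrays, whose lowest were 5.53 for *otx2.L* and 3.45 for *six6.L*. Over all probe sets GFP replicate 1 correlated at 0.983 with EFTF replicate 1 and at 0.961 to 0.977 with the other GFP arrays. A probe set was taken as above background on an array where it exceeded the highest Affymetrix tag control, a limit of 2.90 to 3.18. The marker lists were chosen with earlier results of these data known. Among neural plate genes, of which the study already lists *sox2* and *cdh2* as induced, 8 of 13 probe sets were called higher in EFTF caps. Their summed linear intensity was 3861 to 6885 against 520.3 to 1363 in GFP caps, where it was highest on replicate 1. That sum weighs the brightest probe sets most, here *msi1.L* and *msi1.S* (means of 10.58 and 10.81 in EFTF caps). The 3 neural plate probe sets with lower means, for *sox3.L* and *cdh2.L*, were near background and differed by -0.05, -0.01 and -0.09. Genes of multiciliated cells and ionocytes, cell types of the larval skin, had 1 of 8 lower (8 of 8 with the replicate block described below), at 129.5 to 601.7 against 1148 to 1856. Epidermal markers had 0 of 18 called (2 lower with the block), with 15 means lower in EFTF caps, and summed to 22710 to 32110 against 30160 to 33680. Neural crest markers had 0 of 6 called and 1 higher with the block (44.82 to 50.72 against 42.22 to 44.26). Mesoderm and organizer markers had 0 of 11 called in either fit (78.95 to 109.7 against 75.53 to 85.03). Over all probe sets 0.762% were called higher and 0.658% lower, or 4.91% and 5.25% with the block. Of the genes of the organizer and its midline derivatives, *nog.L* and *foxa4* were below background on all arrays. The brightest *gsc.L* probe set was above background on 3 EFTF and 4 GFP arrays. Its mean was 2.04-fold higher in EFTF caps (not called, adjusted p = 0.317), while *gsc.S* differed by -0.02. The caps are mixtures of such cells, and in their RNA a change in the number of cells of a type cannot be told apart from a change in RNA per cell.

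Most Wnt genes, many of them near background, had mean levels close to each other in EFTF and GFP caps. Those that passed the test were a Frizzled receptor, *fzd8.S*, and a TCF gene, *tcf7.S*. These 2 of the 74 probe sets were higher in EFTF caps and 0 were lower (limma, Benjamini-Hochberg over the whole array, adjusted p under 0.05). Of all probe sets, 1.42% were called, 0.762% higher and 0.658% lower, so the members' share of 2.7% rests on a pair of genes and is near that of the array. Of the 34 members above background on all 8 arrays 2 (5.88%) were called, beside 1.91% of the 10353 such probe sets, while 31 members were above background on some arrays and 9 on none. The median difference of the members, EFTF minus GFP, was 0.03, and that of all probe sets was 0.02. Groups of 4 arrays did not overlap for 8 members, 7 higher and 1 lower in EFTF caps, and for 10.2% of all probe sets (5.42% higher and 4.75% lower). Mean differences of 2-fold or more were seen for 8 members (10.8% of them), all higher in EFTF caps, while 2.76% of all probe sets were that much higher and 3.84% that much lower. These 8 were *fzd2.S*, *fzd8.S*, *dkk1.S*, *frzb.S*, *tcf7.S*, *tcf7l1.L*, *tcf7l2.L* and *prickle1.S*, and 6 of them did not pass the test.

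Arrays that share a replicate number tended to deviate together, those numbered 3 the least, and a fit with the replicate number as a block called 8 members. It called 4 higher (*fzd8.S*, *tcf7.S*, *tcf7l2.L*, *prickle1.L*) and 4 lower (*lrp5.L*, *sfrp2.S*, *dvl3.L*, *vangl1.L*). The same fit called 10.2% of all probe sets, 4.91% higher and 5.25% lower, so 8 of 74 is near the share of the whole array.

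**Figure D1:**
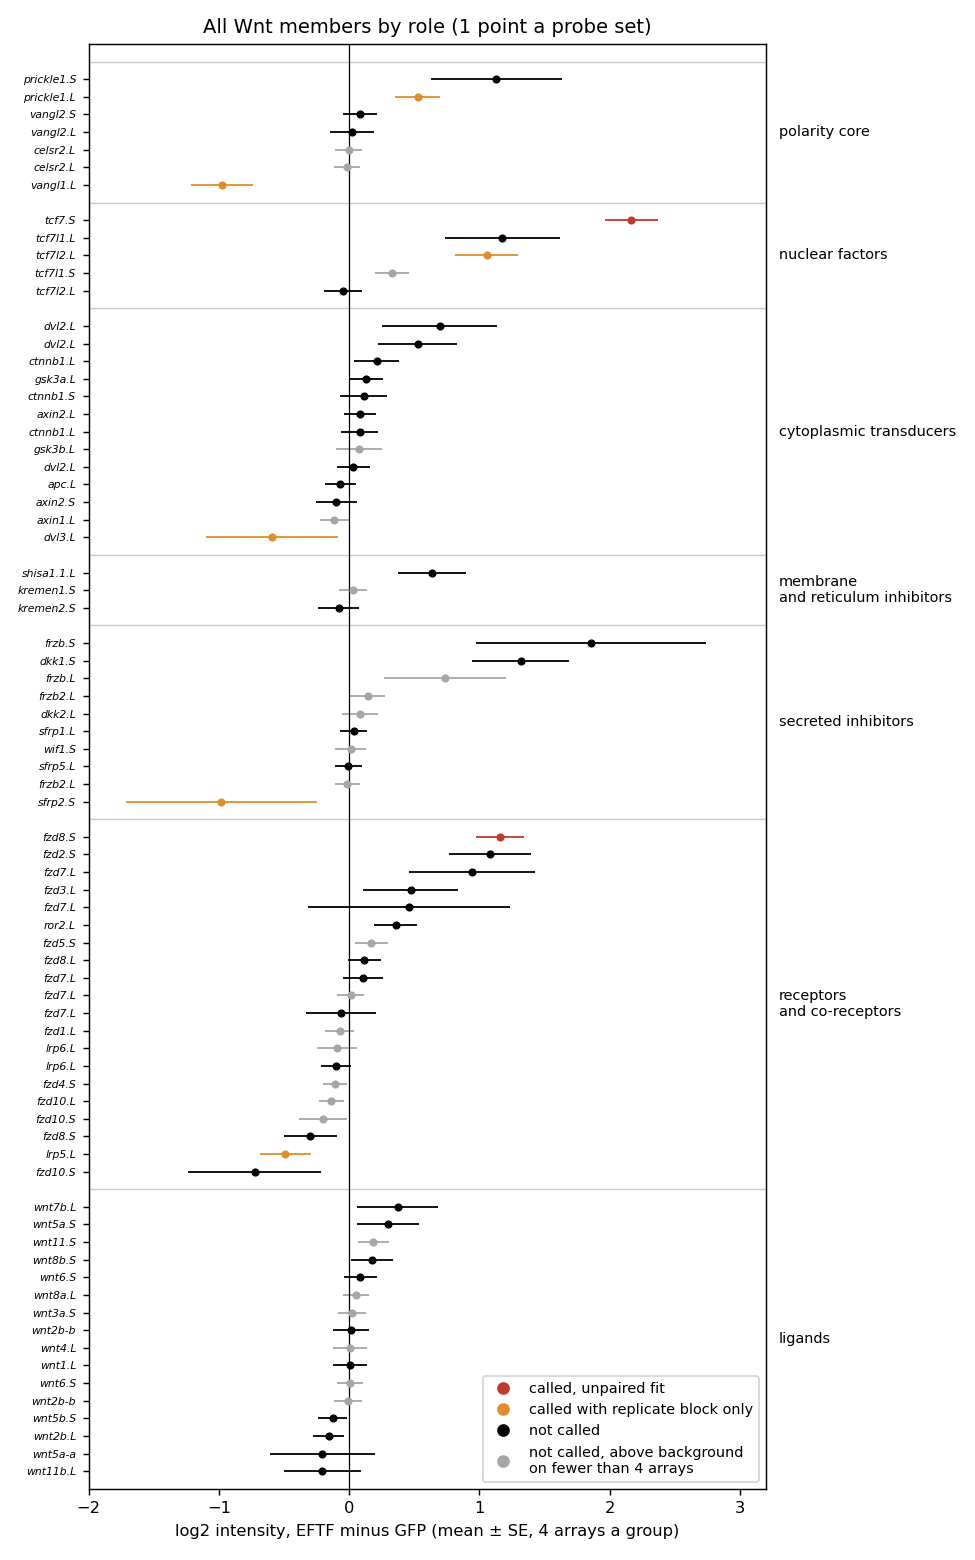
Difference in log2 intensity, EFTF minus GFP (horizontal axis, mean ± SE, 4 arrays a group), for each of the 74 Wnt probe sets, grouped by role and named by gene symbol on the vertical axis. Red marks the 2 called in the unpaired fit, orange the 6 called with the replicate block only, and grey those not called and above background on fewer than 4 arrays; most points lie near 0 and the ligands span only -0.21 to 0.37.

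The ligands had small mean differences, and many read near background. None of the 16 probe sets for 14 *wnt* symbols was called, and their differences ran from -0.21 to 0.37 with a median of 0.01 and adjusted p from 0.500 to 0.991. Of these, 5 were above background on all 8 arrays, 9 on some and 2 on none. Near the background limit only large differences can show. The ligand probe set with the highest mean was *wnt5a-a*, a ligand known mainly for the polarity branch. It read 4.07, 4.31, 4.92 and 4.04 in EFTF replicates 1 to 4 and 4.80, 3.85, 5.61 and 3.90 in GFP replicates 1 to 4. The groups overlapped fully, with replicate 3 the highest of both, and the difference was -0.21 ± 0.40 (SE, 95% interval -1.13 to 0.72, adjusted p = 0.872).

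Among the receptors, *fzd8.S*, which encodes a Frizzled of the anterior neural plate and forebrain, rose. Its main probe set read 8.03, 8.39, 8.76 and 8.83 in EFTF caps and 7.29, 7.45, 7.18 and 7.46 in GFP caps. Every EFTF array lay above every GFP array, and the rise was 2.23-fold or 1.16 ± 0.19 on the log2 scale (SE, n = 4, limma adjusted p = 0.0332). The call was kept with the block (adjusted p = 0.0262) and without EFTF replicate 1 (0.00906), and it was lost without any other single array, at adjusted p from 0.0645 to 0.117, while the difference stayed between 1.05 and 1.20. Without GFP replicate 1, the array with the doubtful source label, the difference was 1.14 (adjusted p = 0.0652). The second probe set annotated to *fzd8.S* read 6.80, 6.56, 6.51 and 6.32 in EFTF caps and 7.34, 6.94, 6.48 and 6.62 in GFP caps. Its groups overlapped and its difference was -0.30 ± 0.20 (adjusted p = 0.531), on the other side of 0.

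*fzd2.S*, another Frizzled, read 6.86, 7.71, 8.08 and 7.27 in EFTF caps and 6.06, 6.87, 5.91 and 6.75 in GFP caps. EFTF was the higher array in 4 of 4 replicate numbers, but the lowest EFTF array fell just under the highest GFP array. The mean was 2.11-fold higher and did not pass (1.08 ± 0.32, 95% interval 0.35 to 1.80, adjusted p = 0.132, or 0.0649 with the block). *fzd7.L*, a Frizzled widely expressed in early ectoderm and mesoderm, rested on 1 array: it read 9.43, 7.84, 7.95 and 8.20 in EFTF caps and 9.48, 8.40, 8.14 and 5.56 in GFP caps. GFP replicate 4 lay far below the other arrays of both groups. With it the difference was 0.46 ± 0.78 (adjusted p = 0.849), and without it -0.32.

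The co-receptor *lrp5.L* was a little lower in EFTF caps, at 3.91, 3.73, 3.55 and 3.14 against 4.25, 4.31, 3.90 and 3.83 in GFP caps. EFTF was the lower array of each replicate number, while the groups overlapped by a narrow margin. The difference of -0.49 ± 0.19 was not called in the unpaired fit (adjusted p = 0.243) and was called with the block (adjusted p = 0.0449). The other 16 receptor and co-receptor probe sets had differences of -0.73 to 0.95 (adjusted p 0.314 to 0.973), and 3 of the 20 in all were above background on no array.

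Secreted inhibitors bind Wnt proteins or Lrp co-receptors outside the cell. Here 0 of 10 probe sets were called, with 7 means higher and 3 lower in EFTF caps. *dkk1.S* encodes Dickkopf-1, which occupies Lrp5 and Lrp6 and is needed for head formation in the frog. It read 3.94, 5.12, 4.55 and 3.18 in EFTF caps and 2.98, 2.65, 2.90 and 2.99 in GFP caps. All EFTF arrays lay above all GFP arrays, replicate 4 only by a little, and of the GFP arrays 2 were above background. The difference was 1.32 ± 0.37 (2.49-fold, 95% interval 0.47 to 2.17) and did not pass (adjusted p = 0.121, or 0.0720 with the block).

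*frzb.S* encodes a Frizzled-related protein of the Spemann organizer that binds Wnt ligands. It read 2.89, 6.20, 6.96 and 3.22 in EFTF caps and 2.99, 2.96, 2.96 and 2.94 in GFP caps. EFTF replicates 2 and 3 stood high while replicates 1 and 4 were at the GFP level, which itself lay just above the background limit. The mean was 3.62-fold higher and did not pass (1.86 ± 0.88, 95% interval -0.17 to 3.88, adjusted p = 0.333). The other copy, *frzb.L*, chosen after its values were seen, read 2.90, 3.56, 4.92 and 2.45 in EFTF caps and 2.77, 2.69, 2.86 and 2.58 in GFP caps. It too was highest on EFTF replicates 2 and 3. Unlike *frzb.S*, it was above background on those arrays only, and on 0 GFP arrays. The organizer marker *gsc.L* (goosecoid), chosen after its values were seen, had a related spread. Its brightest probe set read 4.99, 4.44, 5.18 and 2.79 in EFTF caps and 3.27, 3.26, 3.35 and 3.42 in GFP caps. It was high on EFTF replicates 1 to 3 and low on replicate 4, as *dkk1.S* was, but unlike *frzb.S* it was also high on replicate 1. Its difference of 1.03 was not called over all arrays (adjusted p = 0.317), nor without any single array other than EFTF replicate 4 (adjusted p up to 0.615). It was called without EFTF replicate 4 (1.55, adjusted p = 0.0299). That fit leaves out the array on which the gene was low, which favours a call. *gsc.L* came from the list of mesoderm and organizer markers, with 0 of 11 probe sets called. Its other probe set differed by 0.32 ± 0.21 (adjusted p = 0.530) and *gsc.S* by -0.02, while *nog.L* and *foxa4* were below background on all arrays. The part of organizer-like cells in the levels of *dkk1.S* and *frzb.S* was not tested.

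*sfrp2.S* encodes a secreted Frizzled-related protein and read well above background in both groups, at 9.53, 10.86, 10.20 and 7.68 in EFTF caps and 10.18, 11.39, 11.34 and 9.27 in GFP caps. Replicate 4 was the lowest array of both groups, the groups overlapped, and EFTF lay below GFP in 4 of 4 replicate numbers. The difference of -0.98 ± 0.73 had adjusted p = 0.579 in the unpaired fit and adjusted p = 0.0379 with the block (SE 0.20). The other 7 secreted inhibitor probe sets, *frzb.L* included, had differences of -0.01 to 0.73 (adjusted p 0.506 to 0.989), and 1 of the 10 was above background on no array.

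**Figure D2:**
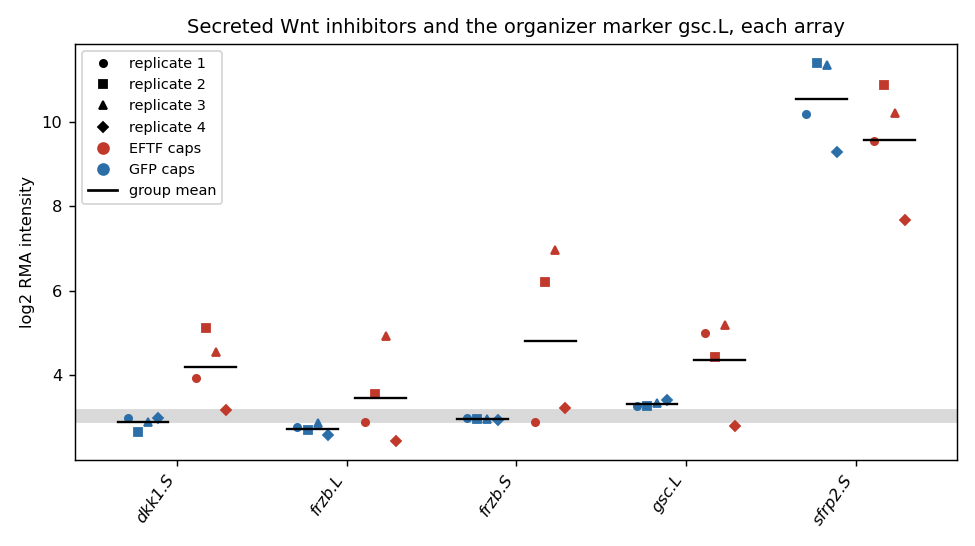
Log2 RMA intensity (vertical axis) of 4 secreted Wnt inhibitors and of the organizer marker *gsc.L* on each array, with GFP caps in blue and EFTF caps in red, a symbol for each replicate number, bars at the group means, and the background limit of 2.90 to 3.18 as a grey band. *frzb.S* is high on EFTF replicates 2 and 3 only, *dkk1.S* on EFTF replicates 1 to 3, and *sfrp2.S* is lower on the EFTF array of every replicate number.

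Inhibitors that act at the membrane or in the endoplasmic reticulum had 0 of 3 probe sets called. *kremen2.S* encodes a partner of Dickkopf that removes Lrp6 from the surface. It read 3.56, 3.32, 3.1 and 3.14 in EFTF caps and 3.23, 3.67, 3.39 and 3.16 in GFP caps. The groups overlapped throughout and the difference was -0.08 ± 0.16 (95% interval -0.44 to 0.28, adjusted p = 0.867). The other 2 were a second *kremen* gene and *shisa1.1.L*, whose family holds immature Frizzled in the reticulum of the frog head ectoderm, at differences of 0.03 and 0.64 (adjusted p = 0.929 and 0.261).

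The cytoplasmic transducers had 0 of 13 probe sets called and a median difference of 0.08. *ctnnb1.L* encodes β-catenin, the effector of the canonical branch, and read 10.81, 10.15, 10.44 and 10.54 in EFTF caps and 10.58, 10.31, 10.15 and 10.06 in GFP caps. The groups overlapped and the difference was 0.21 ± 0.17 (95% interval -0.18 to 0.60, adjusted p = 0.625). *dvl3.L*, a Dishevelled gene, read 6.04, 6.52, 6.44 and 7.79 in EFTF caps and 6.51, 6.98, 7.08 and 8.59 in GFP caps. Replicate 4 was the highest array of both groups, and EFTF was below GFP by 0.46 to 0.80 within each replicate number. The difference of -0.59 ± 0.51 was not called in the unpaired fit (adjusted p = 0.643) and was called with the block (adjusted p = 0.0308, SE 0.10). The other 11 probe sets, for *apc*, *axin1*, *axin2*, β-catenin, *dvl2*, *gsk3a* and *gsk3b*, had differences of -0.11 to 0.69 (adjusted p 0.447 to 0.938). Of the 13 in all, 9 were above background on all 8 arrays. Those for *apc*, *axin1*, *axin2*, *gsk3a* and *gsk3b* had group means of 2.58 to 3.59, near the background limit, where only large differences can show.

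The nuclear factors held the largest difference of the group. *tcf7.S* encodes Tcf7 (Tcf-1), a DNA-binding partner of β-catenin. It read 6.49, 6.63, 6.92 and 7.00 in EFTF caps and 4.89, 4.17, 4.40 and 4.91 in GFP caps. All EFTF arrays lay more than a log2 unit above all GFP arrays, and the rise was 4.49-fold or 2.17 ± 0.20 on the log2 scale (SE, n = 4, limma adjusted p = 0.00595). It kept its call with the block (adjusted p = 0.0162), in replicates 1 to 3 alone (2.19, adjusted p = 0.0412) and without each array in turn, where the highest adjusted p was 0.0329 and the value without GFP replicate 1 was 2.26 (adjusted p = 0.0116).

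*tcf7l1.L* encodes Tcf7l1 (Tcf-3), which acts mostly as a repressor of Wnt targets and is needed for the anterior of the frog embryo. It read 7.20, 7.63, 8.36 and 9.51 in EFTF caps and 6.88, 7.13, 6.92 and 7.07 in GFP caps. The GFP arrays were tight, the EFTF arrays were spread out with replicate 4 the highest, and the groups did not overlap. The mean was 2.26-fold higher and did not pass (1.18 ± 0.44, 95% interval 0.16 to 2.19, adjusted p = 0.221, or 0.0962 with the block). *tcf7l2.L* encodes Tcf7l2 (Tcf-4), which in vertebrates is used in the forebrain and midbrain, among other tissues. It read 4.72, 4.00, 3.88 and 4.90 in EFTF caps and 3.31, 3.22, 3.21 and 3.53 in GFP caps. The groups did not overlap, and the difference of 1.06 ± 0.24 (2.08-fold) had adjusted p = 0.0741 in the unpaired fit and adjusted p = 0.0272 with the block. A second *tcf7l2.L* probe set lay at the background limit and differed by -0.05 ± 0.15 (adjusted p = 0.927). The last nuclear probe set, for *tcf7l1.S*, was above background on 2 EFTF and 0 GFP arrays (adjusted p = 0.243). Markers of the neural plate, given above, were higher in the same EFTF arrays, and their part in the levels of the TCF genes was not tested.

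**Figure D3:**
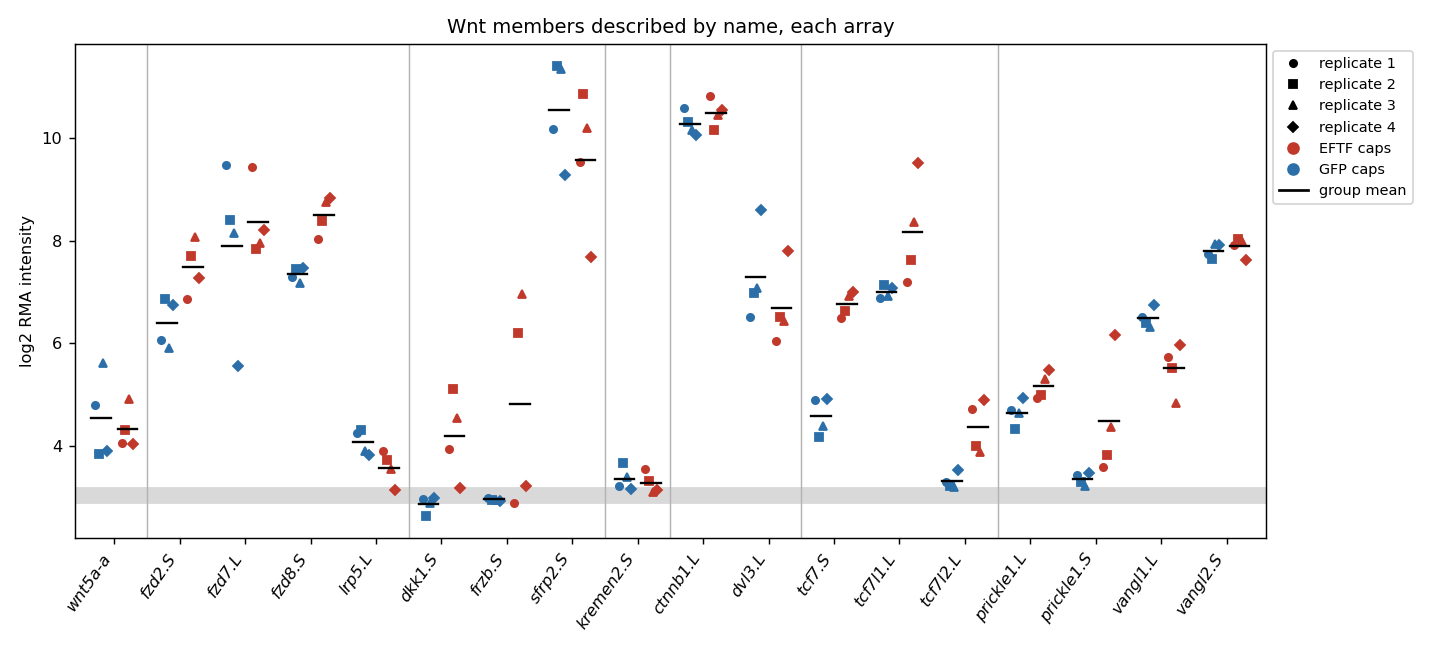
Log2 RMA intensity (vertical axis) on each array of the 18 Wnt probe sets described by name (horizontal axis, in order of role, with grey lines between roles), with GFP caps in blue, EFTF caps in red, a symbol for each replicate number, bars at group means, and the background limit as a grey band. The groups of *tcf7.S* and *fzd8.S* are apart, *vangl1.L* is lower on all EFTF arrays, and *tcf7l1.L* and *prickle1.S* have EFTF replicate 4 far above the rest.

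The core polarity genes had 0 of 7 probe sets called, with 4 means higher and 3 lower in EFTF caps. *vangl1.L* encodes a membrane protein of the Van Gogh family, which marks 1 side of each cell in a polarised sheet. It read 5.74, 5.53, 4.84 and 5.97 in EFTF caps and 6.52, 6.39, 6.31 and 6.75 in GFP caps. Every EFTF array lay below every GFP array, and the level was 1.96-fold lower on average. The difference of -0.97 ± 0.24 had adjusted p = 0.0847 in the unpaired fit and adjusted p = 0.0266 with the block. Its relative *vangl2.S*, the Van Gogh gene best known from neural tube closure, differed little, and whether the pair differ from each other was not tested. It read 7.91, 8.04, 7.99 and 7.62 in EFTF caps and 7.73, 7.65, 7.93 and 7.91 in GFP caps. The groups overlapped and the difference was 0.08 ± 0.13 (95% interval -0.21 to 0.38, adjusted p = 0.831).

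Prickle proteins bind Vangl on the same side of the cell. *prickle1.L* read 4.93, 4.99, 5.31 and 5.49 in EFTF caps and 4.70, 4.34, 4.64 and 4.93 in GFP caps. The groups did not overlap by the smallest of margins, since EFTF replicate 1 and GFP replicate 4 were equal at this rounding. The difference of 0.53 ± 0.17 had adjusted p = 0.170 in the unpaired fit and adjusted p = 0.0446 with the block. *prickle1.S* read 3.60, 3.82, 4.38 and 6.16 in EFTF caps and 3.43, 3.31, 3.23 and 3.47 in GFP caps. Its groups did not overlap, and EFTF replicate 4 was far above the rest. The mean was 2.19-fold higher and did not pass (1.13 ± 0.50, 95% interval -0.02 to 2.28, adjusted p = 0.298), and over replicates 1 to 3 the difference was 0.61 (adjusted p = 0.221). The other 3 probe sets, 2 for *celsr2.L* that were above background on no array and 1 for *vangl2.L*, differed by -0.01 to 0.02.

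**Figure D4:**
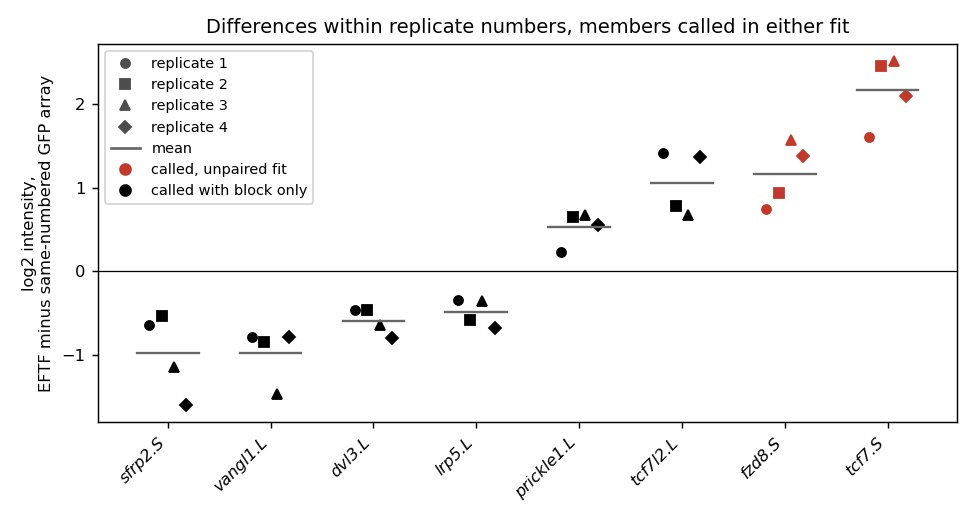
Difference in log2 intensity between the EFTF and the GFP array of the same replicate number (vertical axis) for the 8 Wnt probe sets called in either fit (horizontal axis), with bars at the mean of the 4 differences. Red marks the 2 called in the unpaired fit and black the 6 called with the replicate block only. All 4 differences of each gene have 1 sign, which the choice by the block fit favours.

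For *sfrp2.S*, *dvl3.L* and *lrp5.L*, arrays of the same number moved together, so that the difference within a number varied less than the levels did. The genes of this paragraph were picked by the block fit, which favours such even differences. The 4 differences were -0.65, -0.54, -1.15 and -1.60 for *sfrp2.S*. They were -0.47, -0.46, -0.65 and -0.80 for *dvl3.L* and -0.34, -0.58, -0.35 and -0.68 for *lrp5.L*. In *vangl1.L* they were -0.79, -0.85, -1.47 and -0.79. For the genes that were higher, they ran from 0.23 to 0.67 in *prickle1.L*, from 0.67 to 1.41 in *tcf7l2.L*, from 0.74 to 1.58 in *fzd8.S* and from 1.60 to 2.52 in *tcf7.S*.

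Probe sets of 1 gene did not always read alike. *fzd7.L* had 5, with differences of -0.06, 0.01, 0.46, 0.11 and 0.95, none called. The most different of them read 6.71, 6.28, 6.48 and 7.16 in EFTF caps and 6.94, 6.19, 5.10 and 4.62 in GFP caps. GFP replicate 4 was again its lowest array, and the difference of 0.95 ± 0.48 did not pass (adjusted p = 0.374). *dvl2.L* had 3, with differences of 0.69, 0.03 and 0.53 (adjusted p = 0.505, 0.938 and 0.447). Which transcript each of these probe sets reads was not analysed here.

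**Figure D5:**
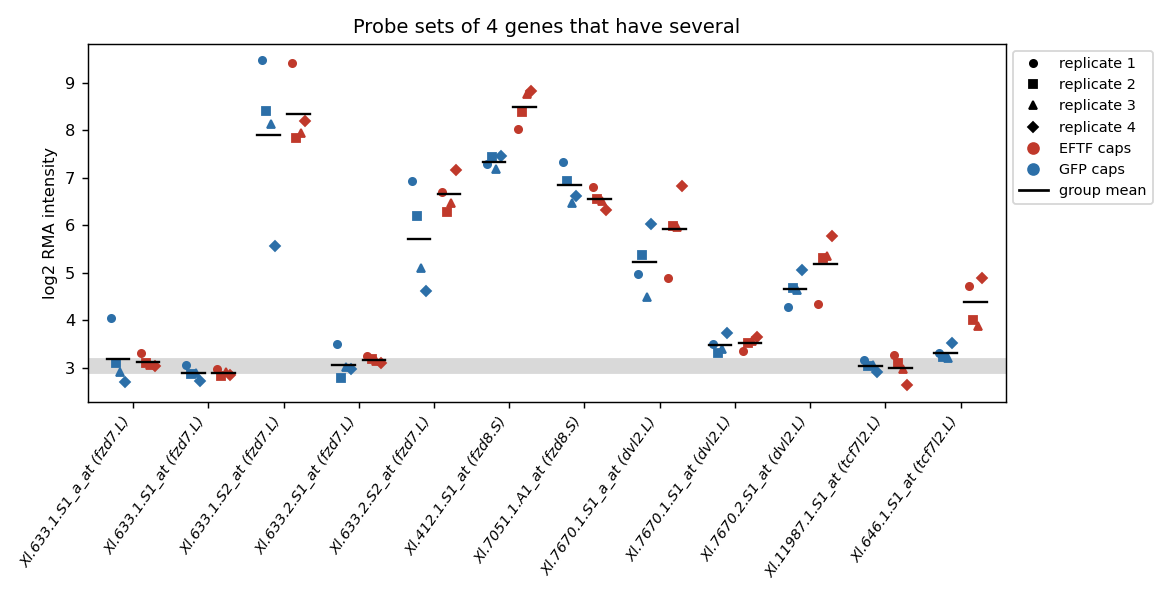
Log2 RMA intensity (vertical axis) on each array of the 12 probe sets of *fzd7.L*, *fzd8.S*, *dvl2.L* and *tcf7l2.L*, named by probe set and gene on the horizontal axis, with GFP caps in blue, EFTF caps in red, a symbol for each replicate number, bars at group means and the background limit as a grey band. The groups of 1 *fzd8.S* probe set and 1 *tcf7l2.L* probe set are apart, and the other probe set of each gene has overlapping groups.

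More than 1 copy symbol was read for 10 genes, taking the brightest probe set of each. The differences had the same sign in 7 genes and opposite signs in 3, in no case with both called. Of the 8 pairs of .L and .S symbols, 7 had the same sign and 1, *axin2*, opposite signs. In the other genes an older symbol, *wnt2b-b* or *wnt5a-a*, was set beside an .L or .S symbol. These older symbols matched no RefSeq gene, so they may not name the other homoeolog. The signs differed for *axin2.L* and *axin2.S* (0.08 and -0.10), for *wnt2b-b* and *wnt2b.L* (0.01 and -0.16) and for *wnt5a-a* and *wnt5a.S* (-0.21 and 0.30), with adjusted p from 0.591 to 0.980. In *fzd8* the S copy rose by 1.16, while the L copy read close to background and differed by 0.11 ± 0.13 (adjusted p = 0.743). In β-catenin the L copy differed by 0.21 and the S copy by 0.11 (adjusted p = 0.846). Several of the signs counted come from dim copies and carry little weight. *fzd10.L* was above background on 0 arrays, *frzb.L* and *tcf7l1.S* on 2 EFTF and 0 GFP arrays, and *vangl2.L* differed by 0.02 ± 0.17. Probe sets that hybridise to both copies cannot be recognised from the annotation, so the copies may not be read apart.

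Other genes of the pathway were taken from a separate list of 103 names covering secretion, agonists, co-receptors, cytoplasmic and nuclear regulators, polarity effectors and direct targets, of which 57 were on the array with 110 probe sets. Of these, 1 was higher and 2 were lower in EFTF caps, beside 0.762% and 0.658% of all probe sets, and their median difference was 0.10. With the block 7 were higher and 4 lower, 10.0% of them, which is at the 10.2% that this fit called over all probe sets (4.91% higher and 5.25% lower). All 3 are nuclear regulators. *tle5.L* encodes a short Groucho-family protein that binds the TLE co-repressors and lacks their repressing parts. It read 9.17, 10.05, 10.37 and 10.20 in EFTF caps and 7.10, 7.44, 7.66 and 6.80 in GFP caps. The groups were well apart, and the rise was 6.50-fold (2.70 ± 0.29, adjusted p = 0.0112). The call was kept without each array in turn but not in replicates 1 to 3 alone (2.47, adjusted p = 0.0682). The other copy, *tle5.S*, chosen after its values were seen, was 1.41-fold higher with overlapping groups and was not called (0.50 ± 0.18, adjusted p = 0.205).

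*ruvbl1.S* and *ruvbl2.S* encode Pontin and Reptin, paired ATPases of chromatin complexes that bind β-catenin. *ruvbl1.S* read 6.14, 6.23, 5.85 and 5.60 in EFTF caps and 7.18, 7.34, 7.05 and 7.76 in GFP caps, a fall of 2.60-fold (-1.38 ± 0.20, adjusted p = 0.0223). *ruvbl2.S* read 7.81, 7.49, 7.71 and 8.04 in EFTF caps and 8.43, 8.42, 8.47 and 8.54 in GFP caps, a fall of 1.63-fold (-0.70 ± 0.13, adjusted p = 0.0462). The groups of neither gene overlapped. The call of *ruvbl1.S* was lost without EFTF replicate 3 or 4 or GFP replicate 2 or 3 (adjusted p up to 0.0962), and that of *ruvbl2.S* without any array other than EFTF replicates 1 and 4 (up to 0.147), while the differences stayed from -1.47 to -1.26 and from -0.72 to -0.61 in those fits. The co-repressor *tle2.L*, chosen after its values were seen, read 4.65, 6.02, 6.39 and 5.89 against 3.58, 4.24, 3.95 and 3.90, and its difference of 1.82 ± 0.35 missed the threshold (adjusted p = 0.0504) and passed it with the block (0.0210).

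Direct targets of canonical Wnt signalling in the frog embryo had 0 of 33 probe sets called, with a median difference of 0.07. At the 1.42% called over all probe sets, a list of this size can hold none by the array's share alone. Of the 33, 17 were above background on all 8 arrays, 20 on at least 4 and 3 on none. The count and the median thus include many targets near the limit, where only large differences can show. With the block 3 were higher and 1 lower, or 12.1% of them, near the 10.2% of all probe sets in that fit. Among them were both copies of the cyclin gene *ccnd1*, which drives entry into S phase, at 0.93 ± 0.23 for *ccnd1.L* and 0.84 ± 0.45 for *ccnd1.S* (adjusted p = 0.0897 and 0.397, or 0.0273 and 0.0298 with the block). *sox9.S*, a neural crest and placode factor, differed by 0.73 ± 0.16 (adjusted p = 0.0666, or 0.0262 with the block). *meis3.S*, which specifies hindbrain, read 7.70, 7.65, 7.54 and 7.77 in EFTF caps and 8.05, 8.82, 8.09 and 8.95 in GFP caps, a difference of -0.81 ± 0.22 (adjusted p = 0.111, or 0.0446 with the block). These 4 were chosen after their values were seen, as the targets called with the block. The only target probe set that differed 2-fold or more was the brighter of *gbx2.2.L*, also chosen after its values were seen. It differed by -1.52 ± 0.60 (adjusted p = 0.243, or 0.0815 with the block), and EFTF was the lower array in 4 of 4 replicate numbers. A dimmer *gbx2.2.L* probe set differed by -0.49 ± 0.29 (adjusted p = 0.458). Axin2, a common readout of the pathway in vertebrates, differed by 0.08 ± 0.12 in *axin2.L* and by -0.10 ± 0.16 in *axin2.S* (adjusted p = 0.822 and 0.841). Over all arrays *axin2.L* read 3.16 to 3.52 and *axin2.S* 3.13 to 3.75. These levels lay close to the background limit of 2.90 to 3.18, where only large differences can show.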

How the data were processed

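RNA of 4 EFTF and 4 GFP cap samples was read on 1 Affymetrix *X. laevis* array each. The authors preprocessed the scans with RMA (version not given in the sources used here) and deposited linear intensity values, 1 per probe set. RMA corrects background, equalises the distributions of the arrays and summarises probes, and it understates differences of dim transcripts. The methods also name a scaling in GeneSpring, and whether it is in these values is not given. They describe triplicates from separate days and females, while the labels number 4 replicates, so p-values measure the spread between these arrays. Levels are log2 of these values, without a pseudocount or further normalization. The number of arrays limits the precision.

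Of 15611 probe sets, 120 Affymetrix controls were left out. The annotation gave the other 15491 either 1 symbol (9304), several (195) or none (5992), and 71 of the 74 members matched a RefSeq gene ID, with 0 symbols changed. Background was the highest of 17 tag controls on each array. The groups, taken from sample titles, were fitted without covariates by lmFit and eBayes of limma 3.58.1 under R 4.3.3. Tests were two-sided, p-values were adjusted by Benjamini-Hochberg across the 15491 probe sets, and the threshold was 0.05. All p-values come from this fit unless the block is named, and 95% intervals are for a single probe set. The fit was checked on simulated data with independent noise on each array, so the check did not cover the shared deviations given next. Deviations from the group means correlated at 0.444, 0.606, 0.223 and 0.646 between arrays numbered 1, 2, 3 and 4 (12737 probe sets above background on at least 4 arrays). Between arrays of different numbers the correlations ran from -0.462 to 0.285. The highest, between EFTF replicate 2 and GFP replicate 3, exceeded that of the arrays numbered 3, so the data do not single out that pair. The numbers were taken to pair the arrays, from the data and not from a statement in the labels. Alternatives were equal array medians, quantile normalization, the filter on dim probe sets, the replicate block, replicate 4 as a block of its own, replicates 1 to 3 alone, an intensity trend with a robust prior, an unpaired t-test and leaving out each array. The study gives such a t-test, with Benjamini-Hochberg adjustment, for EFTF caps against embryo tissues, and names no test against control caps.

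Members named with values were those called in either of these fits, those with non-overlapping groups, those differing at least 2-fold, and the brightest of each role. Genes with more than 1 probe set are represented by the brightest. The members and lists were chosen with earlier results of these data known. Sequences and coordinates were not used here.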

Additional observations from a re-analysis of the deposited data

Results flagged for a closer look

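For 39 of the probe sets with values in the text, each group of 4 arrays was examined for 1 array that stands apart. Dixon's test was used at its 95% level, which chance alone passes in about 5% of groups, and 3 of 78 groups had such an array. *fzd10.S*, a Frizzled of the dorsal neural tube in the frog, read 7.37 on GFP replicate 4 and 4.98 to 5.21 on the other GFP arrays, with EFTF arrays at 5.26, 5.20, 4.55 and 4.80. Its difference over all arrays was -0.73 ± 0.51 (adjusted p = 0.550). The cyclin gene *ccnd1.S* read 6.93 on GFP replicate 4 and 5.68 to 5.85 on the other GFP arrays. *shisa1.1.L* read 3.31 on GFP replicate 1, the array whose labels disagree, and 2.73 to 2.79 on the other GFP arrays, of which none was above background. The causes were not tested.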

How the results depend on the processing

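The count of Wnt members called, 2, was the same, and held the same genes, with equal array medians, quantile normalization, the filter on dim probe sets and the intensity trend. With the replicate block it was 8, with replicate 4 as a block of its own 4, in replicates 1 to 3 alone 1 and with the unpaired t-test 0, where *tcf7.S* had adjusted p = 0.0676. Without 1 array it was 1 to 2, with *tcf7.S* called each time. The count over all probe sets was 220 (118 higher, 102 lower) and became 1575, 754, 18 and 2 under the same settings, and 25 to 702 without 1 array. The split was 124 higher and 170 lower with equal medians and 157 and 137 with quantile normalization. The count of other pathway genes, 3, became 11, 8, 0 and 0, and 1 to 6 without 1 array. Some values changed sign. Without 1 array, the difference of *wnt5a-a* lay from -0.43 to 0.15 (0.15 without GFP replicate 3), that of *kremen2.S* from -0.18 to 0.022 (0.022 without GFP replicate 2), that of *axin2.S* from -0.18 to 0.023 (0.023 without EFTF replicate 3), that of *fzd7.L* from -0.32 (without GFP replicate 4) to 0.99, that of *wnt11b.L* from -0.42 to 0.090 (0.090 without GFP replicate 4) and that of the dim *tcf7l2.L* probe set from -0.14 to 0.075 (0.075 without EFTF replicate 4). In replicates 1 to 3 alone *fzd7.L* was at -0.27, *wnt11b.L* at 0.15 and that *tcf7l2.L* probe set at 0.031. The replicate block changed no call of a named member other than the 6 it added. The causes of these changes were not tested. Counts in fits with fewer arrays rest on fewer samples. Members near the background limit, 9 of which were above it on no array, can show only large differences.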

Other observations

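Replicate 4 lay at the edge of the range for further Wnt genes, which were chosen after their values were seen. *wnt11b.L*, a ligand of the polarity branch needed for gastrulation movements in the frog, read 4.59 on GFP replicate 4 and 3.74, 3.07 and 3.40 on GFP replicates 1 to 3, with EFTF arrays at 3.66, 3.43, 3.56 and 3.33. The difference was -0.21 ± 0.30 (adjusted p = 0.818). *shisa1.1.L* read 4.26 on EFTF replicate 4 against 3.32, 3.05 and 3.52 on EFTF replicates 1 to 3, and *prickle1.S*, *tcf7l1.L* and the more different *fzd7.L* probe set had differences of 2.69, 2.45 and 2.54 between the arrays numbered 4.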
